A study of Mus musculus with 36 samples.

Results

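The genes followed here are 7 members of the canonical Wnt response, Axin2, Sp5, Nkd1, Cdx1, Lef1, Tcf7 and Tcf7l1, taken by name from an RNA-seq time course of Xmas mouse embryonic stem cells (mESCs) as the cells left naive medium. Each name has 1 line in the deposited table of 25965 genes, and all 7 were among the 14612 genes with enough reads to test. The series holds 36 libraries, 4 on each of days 0 to 8. All are labelled as female C57/Bl6 Xmas lines, which were derived with a fluorescent reporter at Hprt on each X chromosome, GFP on one and mCherry on the other. Female mESCs readily lose an X chromosome in culture, and the labels do not say whether each library still carried both. A library is named by its line, X14 or X18, and as double or single, words the labels leave unexplained. Replicates 1 to 4 are X14 double, X14 single, X18 double and X18 single on every day, and values are given in that order below. Day 0 cells were held in 2i (the MEK inhibitor PD0325901 and the GSK3 inhibitor CHIR99021) with LIF. For the later days the cells were weaned in daily steps into a serum medium that lacks both inhibitors and LIF. Loss of the GSK3 inhibitor, loss of the MEK inhibitor, loss of LIF and addition of serum therefore came together and cannot be told apart. There are only 2 lines, nothing in the labels says that the double and single libraries of a line are separate cultures, and p-values measure the spread between these libraries, which may be partly technical.

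In the canonical Wnt pathway, GSK3 works within the destruction complex, built on Axin and Apc, to mark beta-catenin for degradation. A Wnt ligand at its Frizzled and Lrp receptors, or a GSK3 inhibitor, lets beta-catenin accumulate and enter the nucleus, where it acts through the DNA-binding TCF/LEF factors. In mESCs, GSK3 inhibition favours self-renewal mainly by relieving repression by Tcf7l1, the TCF factor that keeps genes of the naive network in check. Axin2, Sp5, Nkd1 and Cdx1 are widely used as direct targets of beta-catenin. Axin2 encodes a scaffold of the destruction complex and Nkd1 a binding partner of Dishevelled, and both feed back negatively on the pathway. Sp5 is a zinc finger repressor and Cdx1 a caudal-type homeobox factor of the posterior embryo. Lef1, Tcf7 and Tcf7l1 are 3 of the 4 mammalian TCF/LEF factors.

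Sp5 is shown first at the sequence level because its promoter carries the letters that TCF/LEF factors bind, and Axin2, a feedback target called lower on day 3, because its promoter window did not. The motif searched was CTTTG followed by AA, AT, TA or TT, on both strands. The windows ran from 250 bases before to 50 bases after a transcription start (RefSeq, GRCm38.p6). Of 32851 such windows 16.9% held a match. Windows were used for 6 of the members, and none for Cdx1. Of their 10 windows 2 held a match. Sp5 matched on the reverse strand 222 bases before the start and on the forward strand 104 bases before it. The other match lay 147 bases before an alternative start of Lef1. The 250 bases before the start of Sp5 (chr2:70474673-70474922, plus strand) and of Axin2 (chr11:108920099-108920348, plus strand) follow, with matches in capitals.
Sp5: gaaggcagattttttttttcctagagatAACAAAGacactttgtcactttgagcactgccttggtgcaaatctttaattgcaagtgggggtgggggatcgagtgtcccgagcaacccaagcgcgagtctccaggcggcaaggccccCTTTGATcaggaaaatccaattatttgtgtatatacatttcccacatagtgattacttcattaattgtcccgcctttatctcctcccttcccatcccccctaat
Axin2: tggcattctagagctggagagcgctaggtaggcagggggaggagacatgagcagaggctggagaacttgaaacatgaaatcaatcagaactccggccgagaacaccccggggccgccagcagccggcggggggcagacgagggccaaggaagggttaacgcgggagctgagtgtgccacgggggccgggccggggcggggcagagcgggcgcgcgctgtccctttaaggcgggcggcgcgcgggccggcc
The Sp5 window was 45% G or C and the Axin2 window 70%. No match says only that these letters are not in the window.

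The genes lie on 6 autosomes of mm10, so none of them is X-linked: Axin2 (chr11:108920349-108950783, plus strand), Sp5 (chr2:70474923-70477729, plus), Nkd1 (chr8:88521344-88594887, plus), Cdx1 (chr18:61018862-61036199, minus), Lef1 (chr3:131110471-131224356, plus), Tcf7 (chr11:52252371-52283014, minus) and Tcf7l1 (chr6:72626378-72789254, minus). Values count reads over all exons of a gene. Levels are given as reads per 1000000 reads (RPM) when 1 gene is followed, and as RPKM (per kilobase of exon as well) when genes are compared. Libraries held 612740 to 2445826 reads in genes, and 3 reads in a library correspond to 1.04 to 3.90 RPM, so Sp5, Nkd1 and Cdx1 lay near the limit of detection on several days. Days were compared with day 0 in limma over all 36 libraries. A gene was called at a Benjamini-Hochberg adjusted p under 0.05 over all genes tested together with a log2 fold change of at least 1 either way.

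The day 0 libraries of X14 went against their labels. In each library the log2 deviation of every gene from its own mean over the 36 libraries was taken. The median over 569 X-linked genes minus that over autosomal genes was -0.72 in the library labelled X14 double. It was 0.63 in the library labelled X14 single. In the other 17 of 18 line and day pairs the double library was the higher, by 0.26 to 1.31 on that scale. At day 0 the library labelled X14 double also had the highest level of Axin2, Cdx1, Lef1, Tcf7 and Tcf7l1, and the X18 double library the lowest of each. Since every fold change below rests on day 0, values without the day 0 libraries of X14 are given for calls they alter. They are not given for every gene and day. Over the whole course the identity of the cells shifted. The naive list holds 8 pluripotency genes, with Pou5f1 and Sox2 beside Nanog and Esrrb. These summed to 3778 to 4832 RPM per library at day 0 and to 338.5 to 715 RPM at day 8. None of the 8 was without reads on either day. In bulk RNA, fewer cells that express a gene and less RNA per cell cannot be told apart.

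The 7 genes did not move as one group. The classical targets Axin2, Sp5 and Cdx1 were low by day 3 and Sp5 reappeared on day 6. Lef1 rose and fell within days 2 to 5, Tcf7 was higher on days 4 to 7 and Nkd1 appeared late. Tcf7l1 was at most 2.04-fold above day 0 with all libraries in the fit. Over all 9 days the F test of limma passed an adjusted p of 0.05 for 6 of 7 members, where 65.2% of all genes tested did. The exception was Tcf7l1 (adjusted p = 0.0751).

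**Figure D1:**
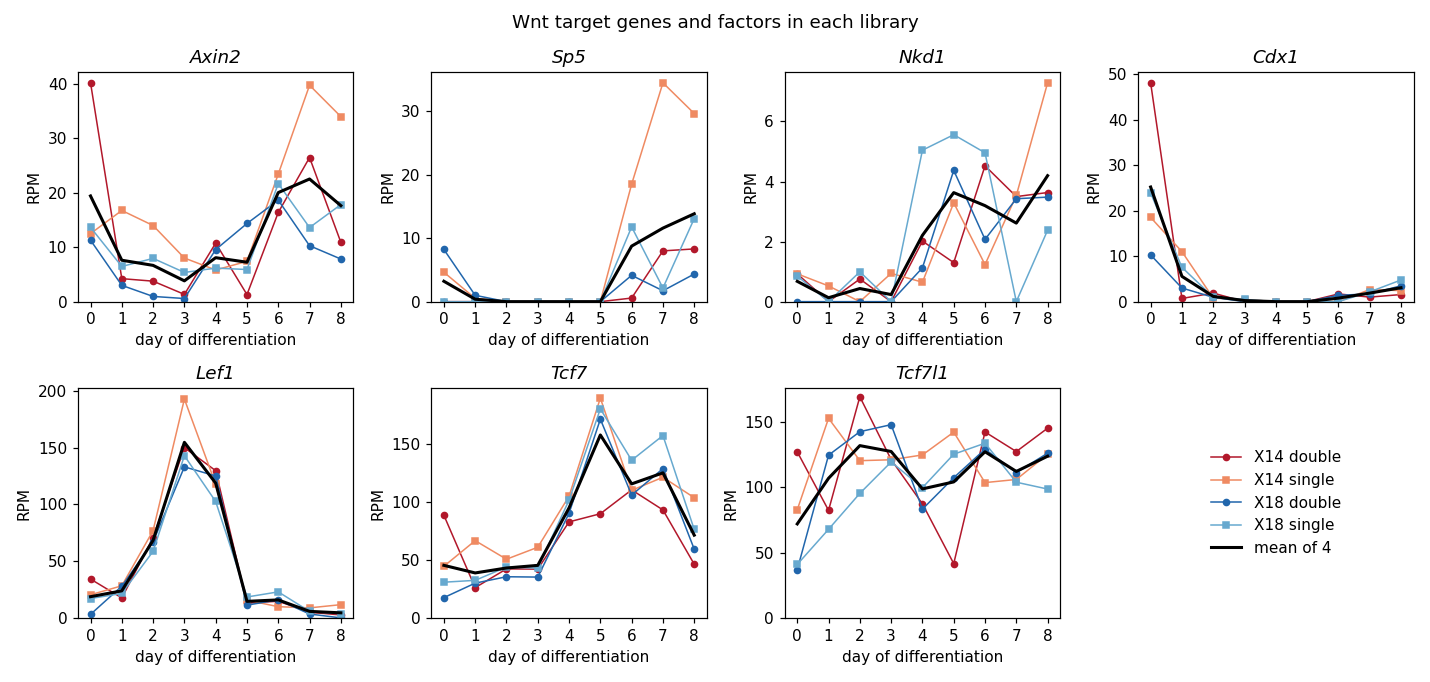
Level of each gene in RPM (linear axis, scaled per gene) against day of differentiation, with 1 coloured line per line and label and the mean of 4 libraries in black. Lef1 is highest on day 3 in all 4 series, Cdx1 is highest on day 0 in all 4, and Sp5 is at 0 in all 16 libraries of days 2 to 5.

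Cdx1 showed the largest and most uniform fall. At day 0 it stood at 48.1, 18.5, 10.3 and 23.9 RPM (25.2 ± 16.3 RPM, SD, n = 4). On day 1 it was at 0.704, 11, 2.99 and 7.54 RPM, and on day 2 at 1.88, 0.777, 0.958 and 0.994 RPM. Every library was below its own day 0 partner on each of these days, and from day 2 no library overlapped the day 0 range. On day 3 there were 2 reads in all 4 libraries together against 182 at day 0, a pooled level 104-fold lower (95% counting interval 28.4 to 867-fold), and on days 4 and 5 there was no read in any of 8 libraries. Against a floor of 3 reads over a day, the level on those days was at least 55.4-fold and at least 54.3-fold lower than at day 0. Reads returned on day 6 (1.70, 0, 1.38 and 0 RPM). By day 8 Cdx1 had 1.56, 2.43, 3.48 and 4.76 RPM, still below all 4 day 0 values. The fall was called on every day from day 2 (log2 fold change -4.32, SE 0.58, adjusted p = 3.0e-05) to day 8 (-2.94, adjusted p = 1.1e-04), also without the day 0 libraries of X14 (day 2, -3.85, adjusted p = 2.1e-04). On day 1 the fitted change was -2.57 with an adjusted p of 0.105.

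Axin2 was called lower on day 3 alone, and on day 6 all 4 libraries lay within its day 0 range. At day 0 it stood at 40.3, 12.5, 11.3 and 13.7 RPM. On day 1 it was at 4.23, 16.8, 2.99 and 6.47 RPM, so the X14 single library still lay in the day 0 range, and on day 3 it was at 1.33, 8.02, 0.576 and 5.37 RPM, with all 4 libraries below that range. The day 3 value rests on 31 reads in 4 libraries (3.82 ± 3.50 RPM, SD, n = 4). The log2 fold change on day 3 was -2.80 (SE 0.76, adjusted p = 0.0136, lower in 4 of 4 replicates), a fitted 6.96-fold fall. This was the only day on which Axin2 was called. The call was narrow: it was kept without the day 0 libraries of X14 (-2.37, adjusted p = 0.0491) and without replicate 2 (-3.52, adjusted p = 0.0113), and lost without replicate 1 (-2.09, adjusted p = 0.0740), replicate 3 (-2.30, adjusted p = 0.0895) or replicate 4 (-3.28, adjusted p = 0.0676). On day 6 the libraries stood at 16.4, 23.5, 18.7 and 21.7 RPM, above every value of days 1 to 5 in those libraries, and day 7 (26.5, 39.8, 10.3 and 13.6 RPM) and day 8 (10.9, 34.0, 7.83 and 17.8 RPM) overlapped day 0. The fitted difference from day 0 was 0.25 on day 6 and -0.15 on day 8, with 95% intervals of -1.24 to 1.74 and -1.64 to 1.34, so a return to the day 0 level and a change of several fold either way are both within the error. From day 5 to day 6 the log2 change was 1.89 (higher in 4 of 4 replicates, adjusted p = 0.0927).

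Sp5 was not detected in the middle of the course and reappeared in a single step. At day 0 it was at 0, 4.63, 8.22 and 0 RPM, thus present in the libraries labelled X14 single and X18 double and without a read in the other 2. Only 2 reads were left on day 1, and none of the 16 libraries of days 2 to 5 held any. Against the floor of 3 reads over a day these days were at least 6.42-fold, 7.93-fold, 7.06-fold and 6.92-fold lower than the pooled day 0 level. The fit called none of them, with 2 of 4 day 0 libraries themselves at 0. On day 6 Sp5 was at 0.565, 18.5, 4.15 and 11.8 RPM and on day 8 at 8.31, 29.6, 4.35 and 13.1 RPM. All 4 series had reads from day 6 on, and on each of these days X14 single was the highest. The mean of day 6 was 18.9-fold above the floor of 3 reads over day 5. The fitted step from day 5 to day 6 was smaller, at 7.61-fold (log2 change 2.93, adjusted p = 0.0222). X14 double held only 1 read on day 6. The day 8 level was higher than day 0 (log2 fold change 2.54, SE 0.88, adjusted p = 0.0175, higher in 3 of 4 replicates). The day 8 call was lost without the day 0 libraries of X14 (2.11, adjusted p = 0.0883), without replicate 1 (1.95, adjusted p = 0.0764) or replicate 4 (2.03, adjusted p = 0.137), and under quantile normalization (1.93, adjusted p = 0.0779). The day 6 step was lost without replicate 2 (2.36, adjusted p = 0.126), replicate 3 (2.94, adjusted p = 0.0779) or replicate 4 (2.16, adjusted p = 0.216).

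The gene most like Sp5 was T, the Brachyury factor of the primitive streak and itself a Wnt target. Among 9403 genes whose mean reached 10 RPM, T had the highest Pearson correlation with Sp5 over the 36 libraries (0.88 on the deposited log2 values), followed by the collagen chaperone Serpinh1 (0.82) and the streak growth factor Fgf8 (0.80). These points share their libraries and depth, and the coefficients are descriptions only. T had no read on days 2 to 4 and no more than 0.822 RPM on day 5. It stood at 9.61, 43.2, 9.68 and 27.9 RPM on day 6. At the end of the course it had 34.3, 183.2, 15.7 and 69 RPM. X14 single was the highest series for T as well on days 6, 7 and 8. The 8 streak and mesoderm markers together summed to 2.78 to 9.37 RPM per library on day 5 and to 69.0 to 108.6 RPM on day 6, with 3 of the 8 without a read on that day. Their part in the Sp5 result was not tested.

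**Figure D2:**
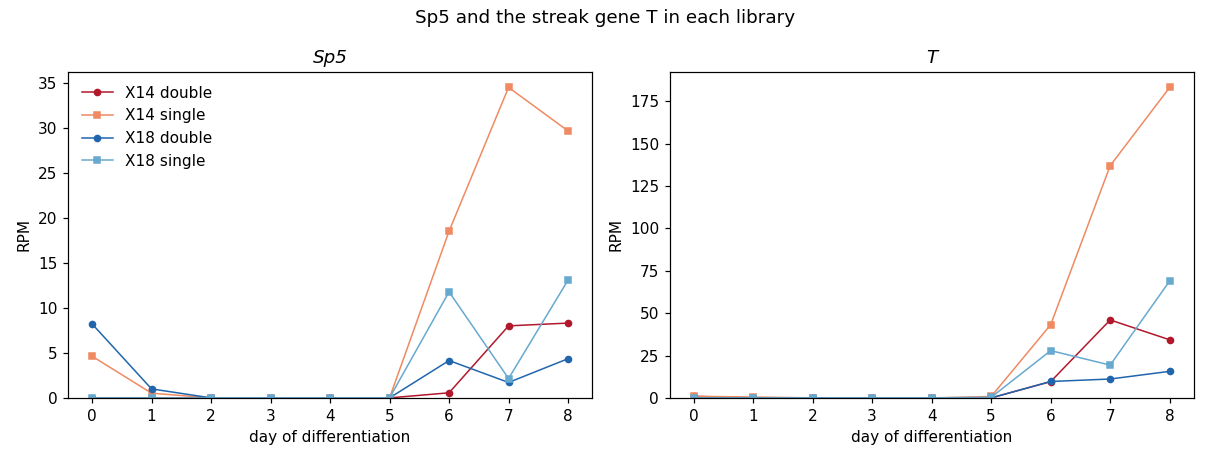
Sp5 (left) and T (right) in RPM on linear axes against day of differentiation, 1 line per series of libraries. Both genes are at or near 0 up to day 5 apart from the Sp5 reads of days 0 and 1, and X14 single is the highest of the 4 series on days 6 to 8.

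Nkd1 was at the limit of detection until day 3, with 0 to 0.994 RPM in the 16 libraries of days 0 to 3 and 11 reads among them. On day 4 it stood at 2.02, 0.647, 1.13 and 5.04 RPM. A day later it was at 1.30, 3.29, 4.37 and 5.56 RPM, and at the end of the course at 3.63, 7.29, 3.48 and 2.38 RPM. The day 5 and day 8 libraries all lay above the day 0 range, whose top was 0.926 RPM. The calls were day 5 (log2 fold change 1.82, adjusted p = 0.0115), day 6 (1.60, adjusted p = 0.0208) and, with the largest change, day 8 (2.09, SE 0.56, adjusted p = 0.00295, higher in 4 of 4 replicates). The day 7 value missed the threshold (1.33, adjusted p = 0.0509), with 0 reads in X18 single beside 3.43 to 3.54 RPM in the other 3 libraries. Day 8 held without any 1 replicate (adjusted p from 0.00142 to 0.0291). Day 6 was lost without the day 0 libraries of X14 (1.63, adjusted p = 0.0555), without replicate 1 (1.37, adjusted p = 0.102), replicate 3 (1.75, adjusted p = 0.0824) or replicate 4 (1.29, adjusted p = 0.0639) and under quantile normalization (0.97, adjusted p = 0.160), and day 5 without replicate 3 (1.67, adjusted p = 0.104) or under quantile normalization (1.38, adjusted p = 0.0504).

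Lef1 made the sharpest pulse. It stood at 34.2, 20.4, 3.08 and 17.1 RPM at day 0 and at 70.8, 77, 67 and 58.6 RPM on day 2. By day 3 it had reached 150.0, 192.8, 133.1 and 142.9 RPM. Day 4 was nearly as high (129.7, 117.8, 125.0 and 102.6 RPM), and on day 5 it was back at 13, 15.6, 11.2 and 18.4 RPM. The 6 primed markers, a list that includes Lef1, summed to 46.2 to 182.3 RPM per library at day 0, 1794 to 3619 RPM on day 4 and 263.2 to 716.7 RPM on day 8. On day 5, when Lef1 fell, the sum was down to 354.9 to 1036 RPM, with Otx2 at 109.1 ± 7.94 RPM after 270.1 ± 27.4 RPM on day 4 and Fgf5 at 5.02 ± 1.77 RPM after 53 ± 12.2 RPM (SD, n = 4). On day 6 the sum stood at 835.6 to 1433 RPM, while Lef1 was at 9.87 to 22.9 RPM. Dnmt3b, Pou3f1, Fgf5 and Otx2 were called higher than at day 0 on each of days 5 to 8. The part of primed cells in the Lef1 result was not tested. In all 4 series the highest day of Lef1 was day 3, and the libraries of days 2 to 4 did not overlap those of any other day. The log2 fold change against day 0 was 2.30 on day 2 (adjusted p = 0.0156). It was largest on day 3, at 3.47 (SE 0.54, adjusted p = 4.5e-05, an 11.1-fold rise), and 3.10 a day later (adjusted p = 5.7e-05). From day 4 to day 5 it fell by 3.05 on the log2 scale (adjusted p = 1.8e-04, lower in 4 of 4 replicates), an 8.26-fold fall in 1 day. Days 3 and 4 and the fall on day 5 were called without any 1 replicate, whereas day 2 was lost without replicate 3 (1.58, adjusted p = 0.218) or replicate 4 (2.47, adjusted p = 0.164).

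Lef1 ended below its starting level. It was at 5.0, 8.84, 3.43 and 5.74 RPM on day 7 and at 2.60, 11.7, 0 and 3.57 RPM on day 8. The day 8 change was -2.19 (SE 0.54, adjusted p = 0.00132, lower in 4 of 4 replicates) and the day 7 change -1.35 (adjusted p = 0.0404). Both depended on the day 0 libraries of X14, the highest of that day: without them the changes were -1.26 (adjusted p = 0.0887) on day 8 and -0.42 (adjusted p = 0.605) on day 7. The day 7 call was also lost without replicate 1 (-0.88, adjusted p = 0.298), replicate 2 (-1.40, adjusted p = 0.0658) or replicate 4 (-1.28, adjusted p = 0.167). The genes most like Lef1 over the 36 libraries were the Groucho corepressor Tle4 (Pearson 0.93), a partner of TCF/LEF factors, the chromatin remodeller Hells (0.93) and the exosome nuclease Dis3 (0.93). The mean of Tle4 was 55 RPM at day 0. It was 206.2 RPM on day 3, and by day 5 had returned to 61.1 RPM.

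Tcf7 rose a day after the height of Lef1 and was called higher on days 4 to 7. At day 0 it was at 88.4, 44.5, 17.5 and 30.7 RPM and on day 3 at 42.0, 60.8, 35.1 and 42.9 RPM. On day 4 it reached 82.7, 104.8, 90.1 and 101.5 RPM and on day 5 89.7, 189.3, 171.1 and 180.0 RPM. X14 double was lower than the other 3 on day 5, in the shallowest library of the series. Every library of days 4 to 7 was above every library of days 1 to 3, though the X14 double library of day 0 was within the day 4 range. The step from day 3 to day 4 was 1.09 (adjusted p = 0.0385, higher in 4 of 4 replicates) and was lost without replicate 2 (1.19, adjusted p = 0.0751), replicate 3 (1.0, adjusted p = 0.185) or replicate 4 (1.04, adjusted p = 0.255). Against day 0 the changes called were 1.31 on day 4 (adjusted p = 0.00301) and 1.99 on day 5 (SE 0.32, adjusted p = 1.2e-05). They were 1.59 and 1.69 on the next 2 days. Day 4 was lost without replicate 3 (0.95, adjusted p = 0.0911) or replicate 4 (1.17, adjusted p = 0.0671). On day 8 it was at 46.2, 103.5, 59.2 and 76.1 RPM and the log2 fold change of 0.84 (adjusted p = 0.0340) was under the minimum of 1. These libraries overlapped those of days 0 and 3, and the change from day 7 was -0.85 (adjusted p = 0.322, lower in 4 of 4 replicates). Against day 0 it was 1.56 (adjusted p = 2.0e-04) and called without the day 0 libraries of X14.

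Tcf7l1 changed least. It was at 127.2, 82.9, 37.0 and 41.0 RPM at day 0 and at 121.3, 121.2, 148.1 and 119.5 RPM on day 3. Both X18 libraries of day 0 were below every later library of X18, while X14 double was higher at day 0 than on 4 of the 8 later days. The log2 fold change lay between 0.58 and 1.03 on days 1 to 8, and only day 3 was called (1.01, SE 0.31, adjusted p = 0.0302). Days 6, 7 and 8 passed in limma (adjusted p = 0.0101, 0.0307 and 0.0127) but were under the minimum fold. With the replicate number as a block, day 2 was called as well (1.03, adjusted p = 0.0372, against 0.0514 without the block). The day 3 call was lost without replicate 2 (1.16, adjusted p = 0.0652), replicate 3 (0.67, adjusted p = 0.420) or replicate 4 (0.83, adjusted p = 0.238), and under quantile normalization (0.83, adjusted p = 0.0573). Without the day 0 libraries of X14 the day 3 change was 1.71 (adjusted p = 2.0e-04), and without those of X18 it was 0.31 (adjusted p = 0.837). All days share day 0, so without the X14 libraries the changes on the other days were larger by the same amount. The small change of Tcf7l1 thus depends on those libraries.

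**Figure D3:**
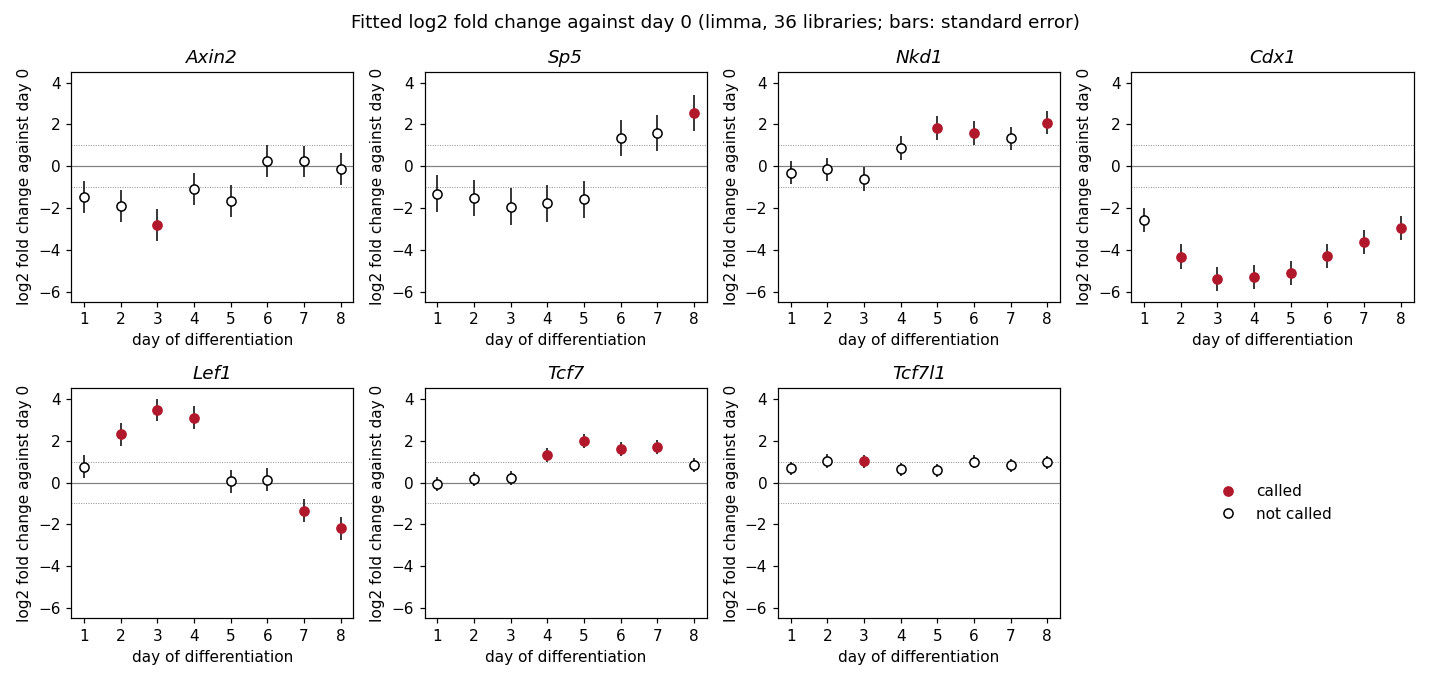
Fitted log2 fold change against day 0 for each gene by day, with its standard error, on 1 shared axis. Filled points passed both thresholds and dotted lines mark a log2 change of 1 either way. Lef1 is called higher on days 2 to 4 and lower on days 7 and 8, and Cdx1 is called lower from day 2 on.

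Compared per length, the order of the 3 TCF/LEF factors changed with the day. At day 0 mean levels were 21.7 ± 12.7 RPKM for Tcf7l1, 17.2 ± 11.7 RPKM for Tcf7 and 2.16 ± 1.48 RPKM for Lef1 (SD, n = 4), so that Tcf7l1 and Tcf7 lay within their spread. On day 3 the means were 38.4 ± 4.13, 17.2 ± 4.18 and 17.9 ± 3.04 RPKM, with Tcf7 and Lef1 within their spread and Tcf7l1 above both. On day 5 Tcf7 was the highest at 60.0 ± 17.5 RPKM, beside 31.4 ± 13.3 RPKM for Tcf7l1 and 1.68 ± 0.36 RPKM for Lef1. On day 8 Tcf7l1 was at 37.3 ± 5.77, Tcf7 at 27.1 ± 9.43 and Lef1 at 0.515 ± 0.582 RPKM. Among the targets, Cdx1 had the highest mean at day 0 (14.4 ± 9.30 RPKM, against 3.53 ± 2.53 for Axin2, 1.53 ± 1.90 for Sp5 and 0.152 ± 0.101 for Nkd1), and Sp5 had the highest at day 8 (6.59 ± 5.29 RPKM). The day 8 means of Axin2 (3.21 ± 2.12), Cdx1 (1.75 ± 0.789) and Nkd1 (0.941 ± 0.479 RPKM) were lower, but the libraries of Axin2 and Cdx1 overlapped those of Sp5. Its lowest library, at 2.07 RPKM, lay above all 4 of Nkd1.

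Counted by day, no member was called on day 1, where 0.0684% of all genes tested were called and 2 members had an unadjusted p under 0.05. On day 2 it was 2 of 7, beside 2.96% of all genes, and on day 3 it was 4, beside 8.89%. Days 4 to 7 each had 3 members called, beside 18.6%, 26.8%, 33.4% and 35.4% of all genes, and day 8 had 4, beside 35.0%. The share of members called was above that of all genes on each of days 2 to 8, but on days 6 and 7 by less than 1 gene. Directions were mixed on each of these days. Of the 4 called on day 3, Lef1 and Tcf7l1 were higher and Axin2 and Cdx1 lower. Of the 4 on day 8, Sp5 and Nkd1 were higher and Lef1 and Cdx1 lower. Sp5 and Nkd1 reached 1 RPM in the 4 libraries that the filter asks for only through later days. The filter thus favoured a late rise in both, and their calls are no independent support for one. The median log2 fold change of the members was -0.60 on day 3 and 0.84 on day 8, beside 0.04 and 0.23 over all genes. Quantile normalization moved the median of all genes on day 8 from 0.23 to -0.09.

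Between consecutive days, the members called were Tcf7 from day 3 to day 4 (5.03% of all genes were called at that step), Lef1 from day 4 to day 5 (10.6%) and Sp5 from day 5 to day 6 (9.72%). No member was called from day 1 to day 2 (0.0342% of genes; 2 members at an unadjusted p under 0.05), from day 2 to day 3 (0.185%; 1 member), from day 6 to day 7 (0.890%; 1 member) or from day 7 to day 8 (0.438%; 1 member).

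Libraries labelled double and single differed most in Axin2. In X14 the double library was the lower on 7 of 8 days from day 1, with means of 9.40 against 18.7 RPM, and in X18 on 6 of 8 days, with means of 8.16 against 10.6 RPM. The exceptions were day 4 in both lines and day 5 in X18. On the log2 scale the largest gaps were on day 3 (-2.59 in X14 and -3.22 in X18), where Axin2 was at 1.33 RPM in double against 8.02 RPM in single of X14, and at 0.576 against 5.37 RPM in X18. In RPM the gaps from day 1 on were largest on day 8, at 10.9 against 34.0 RPM in X14 and 7.83 against 17.8 RPM in X18. At day 0 the library labelled X14 double was the higher, at 40.3 against 12.5 RPM. Over all days with day and line as covariates the log2 difference, double minus single, was -0.93 (SE 0.31, adjusted p = 0.0402), under the minimum fold, and it was -1.08 (adjusted p = 0.0103) and called without the day 0 libraries of X14. In X14 alone it was -1.02 and in X18 alone -0.84. Each label is seen only in a series of daily libraries from X14 and a series from X18. The fit counts the days of a series as independent, so its p-values treat repeated samples as replicates of a label. Neither line passed on its own (adjusted p = 0.296 and 0.251).

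Tcf7 differed in the same direction by less. In X18 the double library was the lower on 9 of 9 days and in X14 on 7 of 8 days from day 1. In the same fit, with the days of a series counted as independent, the log2 difference was -0.38 (SE 0.14, adjusted p = 0.0540). Without the day 0 libraries of X14 it was -0.46 (adjusted p = 8.3e-04). Lef1 followed with -0.49 (SE 0.23, adjusted p = 0.156). No member was called for the label, where 2.99% of all genes were, and 3 members had an unadjusted p under 0.05. Tcf7l1 (0.02, 95% interval -0.26 to 0.31) and Nkd1 (0.01, -0.53 to 0.54) showed no difference beyond their error. Sp5 was lower in double than in single of both lines on each of days 6 to 8, on day 8 at 8.31 against 29.6 RPM in X14 and 4.35 against 13.1 RPM in X18. The X18 pair of day 7 held only 2 against 3 reads, too few to tell apart. At day 0 X18 was the other way round, at 8.22 against 0 RPM. Over all libraries, days without reads included, the Sp5 difference was -0.61 (SE 0.41, adjusted p = 0.339). The level of X-linked genes differed with the label as well, and its part in these differences was not tested.

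**Figure D4:**
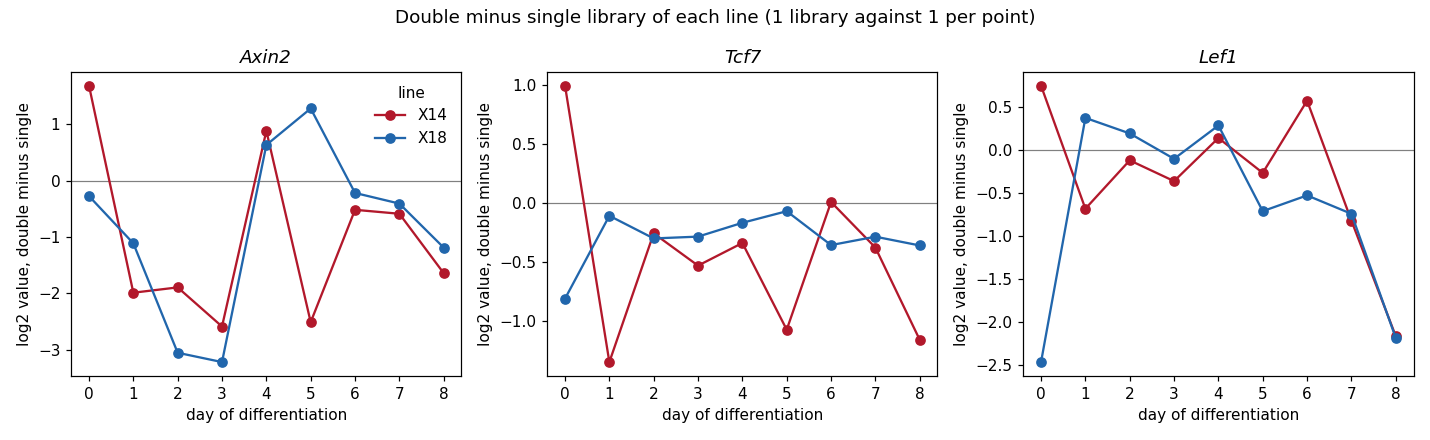
Log2 value of the double library minus that of the single library of the same line and day, for Axin2, Tcf7 and Lef1, with X14 in red and X18 in blue and 1 library against 1 at each point. Most points of Axin2 and Tcf7 lie below 0 from day 1 on, and the X14 points of day 0 lie above it.

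The label difference did not pass the test of change between days 1 to 4 and days 5 to 8 for any member (4.07% of all genes passed, and 1 member, Lef1, had an unadjusted p under 0.05). No member differed between the lines X14 and X18, a comparison that called 0.0137% of all genes and gave no member an unadjusted p under 0.05. The line difference changed between the periods for no gene at all in limma (0% called). At an unadjusted p under 0.05 it did so for 603 genes, among them Tcf7 (-0.48, adjusted p = 0.997).

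Of 95 other genes of the pathway, grouped by role, 79 were tested. On day 3, 8 were higher and 3 lower, 13.9% of those tested beside 8.89% of all genes. On day 8, 41 were higher and 3 lower, 55.7% beside 35.0% of all genes. Genes without a read at day 0, such as Dkk1, entered the 79 through their late reads. The lists were also chosen with earlier results of these data known. The excess over all genes is therefore a description only. The median log2 fold change of the 79 was 0.06 on day 3 and 1.27 on day 8.

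The ligands were among those that were higher at the end. Of 19 listed, 12 had enough reads to be tested. None of the 12 was called on day 3, and 11 of 12 were higher on day 8, where 35.0% of all genes were called. Ligands such as Wnt7a (0 reads at day 0 and 29 on day 8) passed the filter only through late libraries. For these a rise was built into the selection, so the count is a description only. Wnt3, which is needed to form the primitive streak, had no read at day 0 and 12.2 to 30.1 RPM on day 8, at least 40.0-fold higher. Wnt4 was 52.3-fold higher in pooled reads (95% counting interval 17.5 to 257) and Wnt6 184-fold higher (32.6 to 7309), from 3 and 1 reads at day 0. Of the secretion factors, Wls, the carrier of Wnt proteins, was lower on day 3 (log2 fold change -1.34) and higher on day 8 (2.41). Porcn, the enzyme that attaches their lipid, was lower on day 8 (-1.75, adjusted p = 0.00835, lower in 3 of 4 replicates). Unlike the members, the pathway lists were not limited to autosomal genes. The part of the X-linked level, which differed with label and day, was not tested for them.

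Of 15 receptors, 3 were higher and 1 lower on day 3, and 7 were higher on day 8. The shares of all genes called either way, 8.89% on day 3 and 35.0% on day 8, stand beside each count by role given here. The single inhibitor called on day 3 is near that share. Fzd2 rose from 1.94 ± 0.67 RPM at day 0 to 11.6 ± 7.56 RPM by day 3 and to 87.9 ± 26.9 RPM by day 8 (log2 fold change 5.52, SE 0.46). Ror1 was called higher (2.24) and Fzd10 lower (-1.87) on day 3, and Fzd6 (2.94) and Lrp5 (2.25) were higher on day 8. Among 9 secreted inhibitors Dkk3 was lower on day 3 (-1.89). On day 8 Dkk1 (no read at day 0, at least 34.1-fold higher) and Frzb (at least 20.5-fold) were among 3 that were higher, and Notum, an enzyme that removes the lipid from Wnt proteins, was 1 of 2 that were lower (-2.51, from 37.4 to 6.33 RPM). The R-spondin receptor Lgr4 rose by day 3 (1.67, adjusted p = 1.5e-04). Of 5 genes of that group 4 were higher on day 8, among them Rnf43, a ubiquitin ligase that removes Wnt receptors (at least 9.04-fold), Rspo3 (at least 9.40-fold) and Rspo1 (20.6-fold, counting interval 3.27 to 854).

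**Figure D5:**
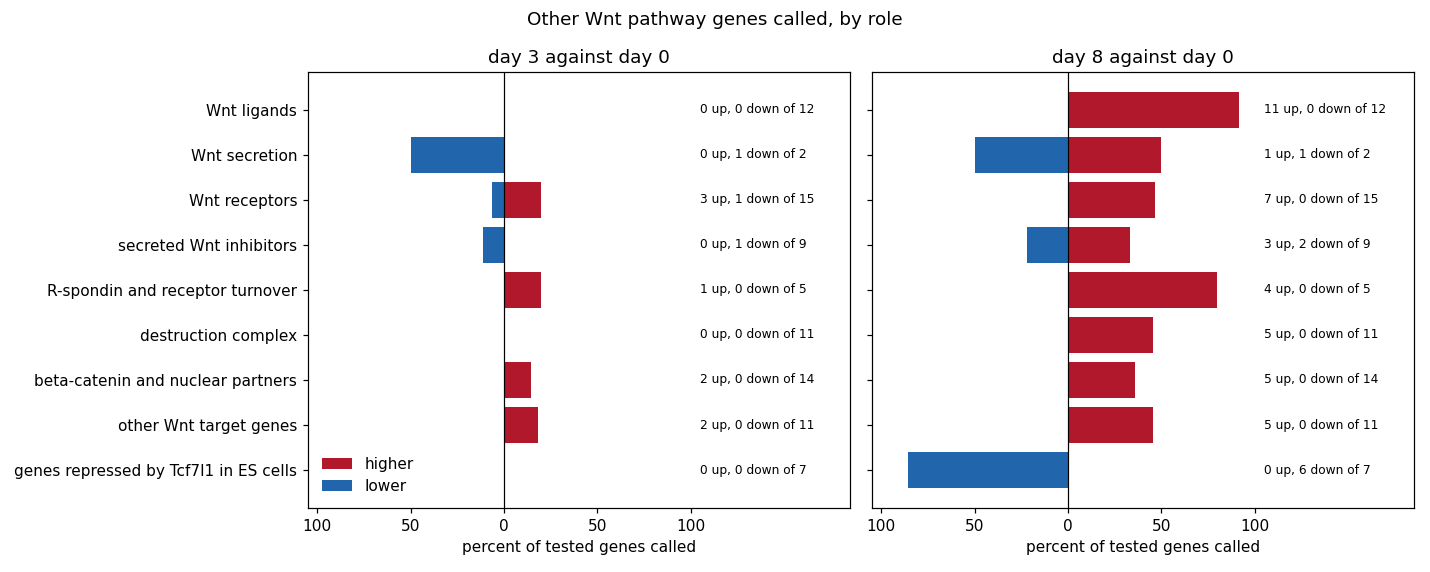
Percent of the tested genes of each role that were called higher (red, to the right) or lower (blue, to the left) on day 3 and on day 8 against day 0, with the counts beside the bars. On day 8, 11 of 12 tested ligands are higher and 6 of 7 genes repressed by Tcf7l1 are lower. Several of the ligands passed the filter only through late libraries.

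Inside the cell, none of 11 destruction complex genes was called on day 3, beside 8.89% of all genes on that day and 35.0% on day 8. On day 8, 5 were higher, among them Apc2 (no read at day 0, at least 21.8-fold), Csnk1d (log2 fold change 1.52) and Gsk3b itself (1.27, adjusted p = 0.00714). Of 14 genes for beta-catenin and its nuclear partners, the Groucho corepressors Tle3 (1.54) and Tle4 (2.17) were higher on day 3, and 5 were higher on day 8, among them the beta-catenin cofactors Bcl9 (1.99) and Bcl9l (4.37) and Tle3 (1.74). Of 11 other targets, Myc (3.44) and Bmp4 (2.19) were higher on day 3, when Axin2 and Cdx1 were lower and Sp5 had no read. On day 8, 5 were higher, among them T (5.85), Myc (5.30) and Bmp4 (4.82). Of 7 genes that Tcf7l1 represses in mESCs none was called on day 3, 6 were lower on day 4, 7 on day 5 and 6 on each of days 6 to 8. The shares of all genes called either way on days 4 to 8 were 18.6%, 26.8%, 33.4%, 35.4% and 35.0%. Esrrb, an orphan nuclear receptor of the naive state, was at 390.1 ± 266.9 RPM at day 0 and still at 368.7 ± 21.9 RPM on day 3, but fell to 21 ± 10.04 RPM on day 8 (-4.10). Nr0b1 went from 113.6 ± 45.0 to 0.481 ± 0.558 RPM, on 3 reads in all at day 8. Nr5a2 fell by 5.72 on the log2 scale.

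No member had another member among its 3 most similar genes over the 36 libraries. Among the genes most like Tcf7 were Plekha1 (Pearson 0.91) and the matrix protease Mmp2 (0.91), and Tcf7l1 was most like Sipa1l1 (0.89), Sipa1l3 (0.89) and Rbbp6 (0.88). Nkd1 was most like the lipase Lipg (0.83), Rhbdf1 (0.80) and Tead3 (0.79). Cdx1 was most like the calpain subunit Capns1 (0.81), Pttg1 (0.75) and Fam86 (0.72), and Axin2, with the lowest values, most like Ttc15, Zdhhc17 and Obfc1 (0.72 each). Between the members themselves the highest coefficient was 0.62, for Nkd1 and Tcf7, and the lowest -0.64, for Sp5 and Lef1.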

How the data were processed

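RNA-seq was carried out on 36 libraries, 4 on each of 9 days. According to the study's methods, single-end reads were trimmed (trim_galore), then mapped to mm10 with tophat or hisat2, and SeqMonk gave the gene values. Annotation version and strand use are not given in the sources used here, so reads of overlapping antisense genes cannot be told apart. The deposited values are on the log2 scale: the authors' table is named as log CPM, but the spacing of low values shows log2 RPKM, with a gene without reads written as 0.9 read. Whole reads were recovered for 100% of values (tolerance 0.02 read) and gave RPM, depth and floors. Columns left unused numbered 0.

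Tests used limma 3.58.1 (lmFit and eBayes with trend, two-sided) under R 4.3.3. The deposited log2 values entered for the 14612 genes with at least 1 RPM in at least 4 libraries, with day as the factor. The table in use does not hold gene counts as such, so voom in limma on recovered reads served as an alternative. Double and single libraries were compared with day and line as covariates, and lines with day and label, without a term for the series. Intervals and floors (3 reads) cover counting error only. Libraries of the same day differed by more than counting error, with a chi-squared of at least 1.24 per gene in each pair. The replicate number stands for the same line and label on every day and pairs the libraries by design. Deviations from the day means correlated at 0.09 to 0.17 on average within a number and at -0.06 to -0.03 between numbers. Besides the 7 members, the genes named are up to 3 with the largest called change per pathway list on day 3 and on day 8, the 3 genes most correlated with each member (1 is not reported here), and cell type markers. Alternatives were quantile normalization, upper-quartile scaling, no minimum fold change, each line or label alone, voom, another pseudocount, no filter, only the days compared, the replicate block, and libraries left out. The members and lists were chosen with earlier results of these data known. Promoter windows are those of RefSeq, and none was used for Cdx1.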

Additional observations from a re-analysis of the deposited data

Results flagged for a closer look

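Of 49 member and day groups of 4 libraries with more than 3 reads in at least 1 of them, 5 had 1 library far from the other 3, where chance alone sets about 1 in 20 groups apart. Axin2 at day 0 was at 40.3 RPM in the library labelled X14 double and at 11.3 to 13.7 RPM in the others, and this is one of the libraries whose X-linked level went against its label. Tcf7 on day 1 was at 66.5 RPM in X14 single and at 26.1 to 32.3 RPM in the others, and on day 6 at 135.7 RPM in X18 single beside 105.7 to 110.2 RPM. Tcf7l1 on day 3 was at 148.1 RPM in X18 double beside 119.5 to 121.3 RPM. Nkd1 on day 7 was at 0 RPM in X18 single beside 3.43 to 3.54 RPM, where the others held 4 to 7 reads.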

How the results depend on the processing

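All values rest on 4 libraries a day from 2 lines, and every fold change rests on day 0. The count of members called on day 1 was 0 and became 1 with log2(RPM + 1) (Cdx1) and without the day 0 libraries of X14 (Tcf7l1), with or without the replicate block (the combination was chosen after seeing the data). When only libraries of the 2 days entered, it was 1 in place of 2 on day 2 and 2 in place of 4 on day 3, where fewer libraries estimate the spread. Without the day 0 libraries of X18, an alternative chosen after seeing the data, it was 1 on day 2, 2 on day 3 and 1 in place of 3 on day 6, and the Tcf7l1 change on day 1 turned from 0.68 to -0.0149, neither called. The cause was not tested. For the label 1 member in place of 0, Axin2, was called without day 0 and without the day 0 libraries of X14. Leaving out 1 replicate gave 0 to 1 members on day 1, 1 to 3 on day 2, 2 to 4 on day 3, 2 to 5 on day 4, 3 to 5 on day 5, 2 to 4 on days 6 and 7 and 3 to 5 on day 8. Between days it gave 0 to 1 for the steps into days 2, 4 and 6.

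With the replicate block the counts were 0, 3, 4, 3, 3, 3, 3 and 4 on days 1 to 8, and the block changed no call of a member other than Tcf7l1 on day 2. The count of other Wnt pathway genes lay between 10 and 12 on day 3 and between 41 and 44 on day 8 with quantile normalization, without the filter and with the block. Over the comparisons in which a member had an unadjusted p under 0.05, 506 values kept direction and call, 35 gained the call, 52 lost it and 1 reversed. Shallow libraries limit Sp5, Nkd1 and Cdx1 most, where 1 library adds or removes a handful of reads.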

Other observations

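Markers of other cell types lay outside the Wnt comparisons. Of 6 trophoblast and epithelial markers, 5 were tested and 4 were called higher on day 8 in limma. On that day 35.0% of all genes were called either way. The simple epithelial keratins Krt8 and Krt18 went from 2.11 ± 2.19 and 2.66 ± 1.05 RPM at day 0 to 68.3 ± 11.8 and 387.3 ± 25.9 RPM on day 5. They stood at 1226 ± 358 and 1742 ± 725 RPM on day 8 (SD, n = 4). The summed level of the 6 was 81.2 to 126.4 RPM per library at day 0 and 2358 to 5112 RPM on day 8. Cdx2, a caudal factor related to Cdx1 and shared by the lists of markers and of Wnt targets, had 3 reads in all at day 0, none on days 1 to 5, and 7.48 ± 4.93 RPM on day 8.

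Of 5 streak and mesoderm markers tested, Hand1 and T were higher on day 8, Hand1 by at least 123-fold. Of 4 endoderm markers tested, Foxa2 was higher by at least 20.5-fold, and the 6 listed summed to 0 to 9.25 RPM at day 0 and 2.61 to 27.7 RPM on day 8. Of 5 neural markers tested Nes was higher and Tubb3 and Mtap2 were lower, and the 6 summed to 94.6 to 156.5 RPM at day 0 and 58.3 to 93.3 RPM on day 8.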
